A study of Mus musculus with 20 samples.

Results

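The comparison described here sets spinal cord RNA of transgenic (TG) mice at 17 days of experimental autoimmune encephalomyelitis (EAE) against that of naive TG mice. Its members are the 9 two-colour arrays, of 20 in the series, that hold an animal of either group: 3 TG animals at 17 days post-induction (dpi; animals 1, 3 and 7, on 5 arrays) and 3 naive TG animals (5, 7 and 8, on 5 arrays). One array, TG 17 dpi animal 1 with naive TG animal 5, held both groups and is called the direct array. All mice were female C57BL/6, labelled as 60 days old, whereas the design text gives 2 to 4 months. TG mice carried GFAP-IkappaBalpha-dn, a dominant negative form of the NF-kappaB inhibitor IkappaBalpha driven by the promoter of the astrocyte gene Gfap, so the block is meant for cells that use that promoter. They were bred from heterozygous males and wild type (WT) females, and WT littermates were the controls. EAE mice had received 150 ug of MOG peptide (residues 35 to 55) in complete Freund's adjuvant under the skin on days 0 and 7 and 500 ng of pertussis toxin on days 0 and 2, so that the change described is that of the whole induction, adjuvant and toxin included, against naive mice. The groups that link the arrays were TG at 80 dpi (3 animals), WT at 17 dpi (animals 1 and 4, although the design text states 3 animals per time) and naive WT (3 animals).

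EAE is an autoimmune disease of the central nervous system in which myelin-reactive T cells enter the cord, recruit monocytes and neutrophils and activate microglia and astrocytes. NF-kappaB is a transcription factor that IkappaB proteins hold in the cytoplasm until an inflammatory signal has them degraded, and in astrocytes it drives chemokines, adhesion molecules and cytokines. Interferon-gamma from the T cells induces a partly separate set of genes for antigen presentation, guanylate-binding proteins and chemokines such as Cxcl10.

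Each array gave 1 log ratio per feature, taken as log2, for 43785 to 43894 features on the 16 arrays of naive, 17 dpi and 80 dpi animals. Ratios carry no signal level, so whether a cell type's marker was present in the cord could not be checked, nor could dim probes be told from bright ones. The labels do not say which dye is the numerator. The ratios were read as TG over WT and EAE over naive, a working direction. Of 43514 features with values on all 16 arrays, 3210 turned sign with the dye on every array under this reading, whereas 0 kept 1 sign on every array, as a dye effect would in Cy5 over Cy3. On 14 or more arrays the numbers were 16580 and 43. The direct array and the 2 arrays of TG at 80 dpi with naive TG or TG 17 dpi animals run the same way in both readings. The array of TG 17 dpi animal 3 with WT animal 4 stood apart, with an SD of its ratios of 1.07 against 0.286 to 0.730 on the other 15 arrays.

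The regulatory sequences of 4 of the genes on which the results turn are shown because they differ in how the gene behaved in TG cord. Cxcl10, Gbp3 and Ifit3 were higher in TG cord at 17 dpi, and H2-Aa did not pass the test there. A larger change in WT cord was not particular to H2-Aa. Gbp3 changed by 4.38 in WT against 1.68 in TG cord, and Cxcl10 by 5.25 against 2.99. The 300 bases run 5′ to 3′ on the gene's strand, from 250 before to 50 after the annotated start, from RefSeq (GRCm38.p6), at chr5:92348840-92349139 (minus strand, Cxcl10), chr3:142559794-142560093 (plus strand, the first of 2 Gbp3 starts), chr19:34583279-34583578 (plus strand, Ifit3) and chr17:34287774-34288073 (minus strand, H2-Aa). Capitals mark matches, on either strand, to the core of the interferon-stimulated response element (ISRE, a pair of GAAA blocks 2 bases apart) and to the kappaB motif. The interferon-gamma activated site (GAS, TTCNNNGAA) was also searched and had no match in these 4.
Cxcl10: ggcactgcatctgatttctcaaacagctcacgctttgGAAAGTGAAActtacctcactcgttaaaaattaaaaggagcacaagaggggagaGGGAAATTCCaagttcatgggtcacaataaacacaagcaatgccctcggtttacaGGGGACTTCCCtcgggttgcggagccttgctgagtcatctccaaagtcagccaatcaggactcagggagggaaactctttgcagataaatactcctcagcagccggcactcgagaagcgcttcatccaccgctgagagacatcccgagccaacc
Gbp3: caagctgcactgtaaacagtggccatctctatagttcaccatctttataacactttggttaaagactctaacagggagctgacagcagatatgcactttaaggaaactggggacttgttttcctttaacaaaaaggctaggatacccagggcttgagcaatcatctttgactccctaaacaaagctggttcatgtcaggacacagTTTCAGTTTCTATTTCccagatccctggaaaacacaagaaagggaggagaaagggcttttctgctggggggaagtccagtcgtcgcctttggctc
Ifit3: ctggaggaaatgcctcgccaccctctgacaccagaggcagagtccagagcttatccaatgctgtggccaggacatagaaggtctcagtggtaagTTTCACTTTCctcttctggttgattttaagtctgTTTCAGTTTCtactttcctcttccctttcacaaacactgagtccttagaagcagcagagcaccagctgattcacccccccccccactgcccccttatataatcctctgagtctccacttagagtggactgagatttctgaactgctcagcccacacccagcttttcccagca
H2-Aa: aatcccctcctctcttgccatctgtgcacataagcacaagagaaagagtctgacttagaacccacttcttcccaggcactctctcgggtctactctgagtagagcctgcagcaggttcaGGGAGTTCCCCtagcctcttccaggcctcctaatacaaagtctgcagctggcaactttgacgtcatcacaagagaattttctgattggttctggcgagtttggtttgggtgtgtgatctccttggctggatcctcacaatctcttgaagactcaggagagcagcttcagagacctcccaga
Cxcl10 held 1 ISRE core, its first base at -213 from the start, and 3 kappaB matches at -159, -104 and -103, the last 2 overlapping. Gbp3 held 2 overlapping ISRE cores at -45 and -39, Ifit3 held 2 at -156 and -122, and H2-Aa held 2 overlapping kappaB matches at -131 and -130. No match to 1 motif overlapped a match to another in these 4 windows. Over all 32851 promoters of that length, 3.44% held an ISRE core, 8.30% a GAS and 8.46% a kappaB match; an ISRE core overlapped a GAS in 24 promoters and a kappaB match in 2, and a GAS overlapped a kappaB match in 25. Promoters were found for 9 of the 12 most raised genes named below, of which Cxcl10 and Gbp3 held an ISRE core and Cxcl10 a kappaB match. Of the 11 found for the 12 most lowered genes, 0 held an ISRE core, 2 held a kappaB match (Ncdn and Psap) and 1 a GAS (Ncdn). S100a8, the most raised gene, and the second Gbp3 start held no match to these motifs and are not shown. A gene with several starts was counted if any of them matched, whereas the shares are per promoter. The matches are of letters only and say nothing of binding.

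In TG cord at 17 dpi the calprotectin genes S100a8 and S100a9, the chemokines Cxcl10 and Ccl2, interferon-induced genes and some macrophage and microglia markers were higher than in naive TG cord. The noncoding RNAs Meg3, Snhg11 and Mirg, the saposin precursor Psap, and some neuronal, endothelial and oligodendrocyte progenitor genes were lower. In a linear model over the 16 arrays, 1438 of 19087 genes were higher (7.53%) and 2096 lower (11.0%) at an adjusted p under 0.05 (limma, Benjamini-Hochberg over all genes tested; n = 3 and 3 animals), and 6225 had an unadjusted p under 0.05. These numbers rest on few animals. Without the direct array 437 genes were higher and 863 lower, without TG 17 dpi animal 1 the numbers were 137 and 278, and without naive TG animal 5 they were 6 and 2. Without the wide array of TG animal 3 and WT animal 4 they were 3734 and 4157. In what follows "rose" and "fell" refer to the fit over the 16 arrays, and of the genes named here Snhg11 alone was still called without naive TG animal 5. Of 100 genes named by rule and called, 60 were still called without the direct array, 25 without TG 17 dpi animal 1 and 70 without the array of WT 17 dpi and naive WT. Changes are log2 fold changes, TG 17 dpi over TG naive, and ± gives the fitted standard error.

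The label genes were examined first. Gfap, the intermediate filament of astrocytes, had a deposited ratio of 0.27 on the direct array, 0.14 for TG at 80 dpi over naive TG, and -0.57 for TG at 80 over 17 dpi. Over WT its ratios in TG cord were 0.09, -0.06 and 0.23 at 17 dpi and -0.12, 0.25 and -0.18 in naive mice. The TG and WT arrays thus lay on both sides of 0, and the arrays within TG put 17 dpi above naive and above 80 dpi. Gfap rose by 0.54 ± 0.13 in TG cord (adjusted p = 0.0142, 3 probes from 0.13 to 0.84, of which 1 passed), against 0.54 in WT cord (adjusted p = 0.0149), and the difference between the changes was -0.00 ± 0.14. Nfkbia, which encodes IkappaBalpha, gave -0.98 on the direct array, -0.99 for TG at 80 dpi over naive TG and -0.12 for TG at 80 over 17 dpi. Over WT its ratios at 17 dpi were -1.22, 1.39 and -0.96, the 1.39 coming from the wide array. Its change in TG cord was -0.58 ± 0.48 and did not pass (adjusted p = 0.437). The probe need not detect the transgene, and its level does not report the block.

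Of the NF-kappaB subunit genes tested, Rela alone passed. Rela, the p65 subunit, fell by 0.30 ± 0.08 (adjusted p = 0.0279), and this call was lost without the direct array (-0.22, adjusted p = 0.182). Nfkb2 (0.27 ± 0.60), Relb (0.06 ± 0.21) and Rel (0.68 ± 0.44) did not pass, with ratios by separate routes on both sides of 0 for Nfkb2 and Relb. Of 29 tested genes of NF-kappaB subunits, inhibitors and feedback targets, 1 rose (Gadd45b, a stress-induced gene, 0.45 ± 0.12) and 3 fell (Rela; Traf2, a TNF receptor adaptor, -0.30 ± 0.08; and the survival gene Bcl2l1, -0.41 ± 0.09). Over all genes tested 7.53% rose and 11.0% fell, so the number that fell is near that share. The median of the 29 was 0.08, against 0.02 over all genes tested, and it had no settled sign. It was 0.26 without the direct array, 0.40 without TG 17 dpi animal 1 and -0.06 without the array of WT 17 dpi and naive WT.

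S100a8 and S100a9 encode the 2 subunits of calprotectin, an alarmin abundant in neutrophils and in freshly recruited monocytes. S100a8 had the largest fold change among called genes. Its deposited ratio was 4.88 on the direct array, 4.11 for TG at 80 dpi over naive TG and 0.76 for TG at 80 over 17 dpi. Over WT it was -0.08, -0.30 and 2.09 in TG cord at 17 dpi and -0.06, 0.29 and 0.59 in naive mice. EAE cord was far above naive cord on both arrays that pair them within TG, at 17 and at 80 dpi, while TG and WT did not separate at 17 dpi. The change was 4.02 ± 0.56 (16.2-fold, adjusted p = 0.00195), and 3.27 without the direct array (adjusted p = 0.0208). S100a9 rose by 2.96 ± 0.65 (adjusted p = 0.0105), a call lost without the direct array (2.61, adjusted p = 0.0724). Retnlg, a resistin-like gene of neutrophils, rose by 1.25 ± 0.33 (adjusted p = 0.023). These were the 3 of 15 tested neutrophil markers that passed, and 0 fell, against 7.53% higher and 11.0% lower over all genes tested. The median of the 15 was 0.44, but by route it was 0.26, 0.14 and 0.76 (direct array, through TG at 80 dpi, through WT), and 0.21 without the array of WT 17 dpi and naive WT. In bulk cord more cells of a type and more RNA per cell cannot be told apart.

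**Figure D1:**
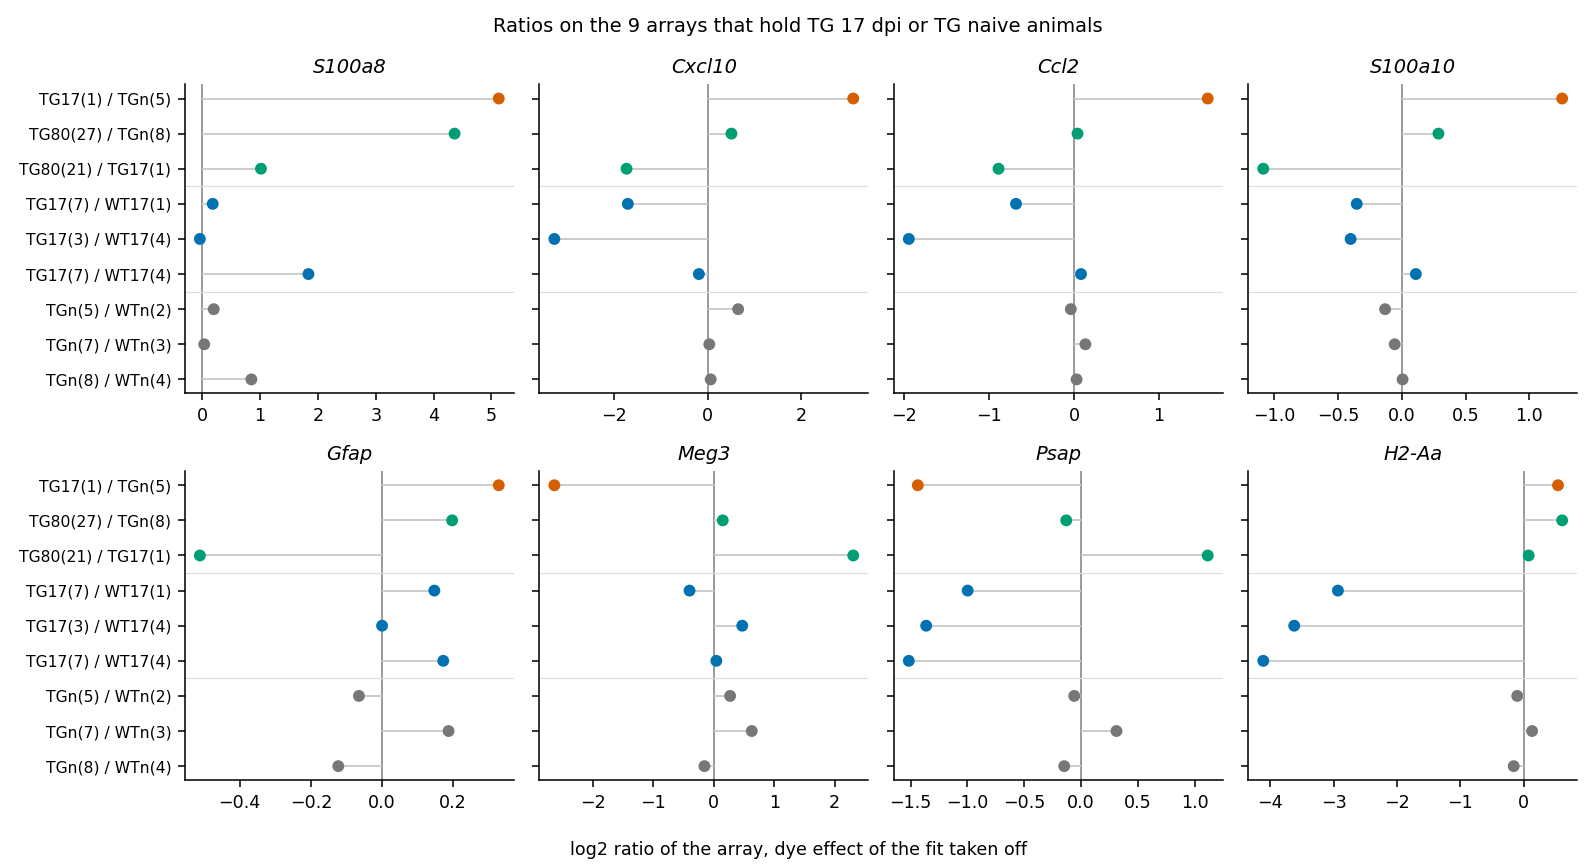
Log2 ratios of 8 genes (panels) on the 9 arrays that hold a TG 17 dpi or a naive TG animal, with the dye effect of the fit taken off. Each point is 1 array, named by the animals over each other: the direct array (orange), TG at 80 dpi (green), TG over WT at 17 dpi (blue) and TG over WT in naive mice (grey). The direct array put S100a8 at 5.13, Cxcl10 at 3.11 and Meg3 at -2.63, while H2-Aa lay at 0.55 there and below -2.9 on the 3 arrays of TG over WT at 17 dpi.

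Chemokines that recruit T cells and monocytes were among the most raised genes. Cxcl10, the interferon-inducible ligand of the T cell receptor Cxcr3, had a ratio of 3.21 on the direct array, 0.60 for TG at 80 dpi over naive TG and -1.64 for TG at 80 over 17 dpi. Over WT it was -1.62, -3.19 and -0.28 in TG cord at 17 dpi and 0.74, -0.06 and 0.16 in naive mice. Animal 1 at 17 dpi was above the naive and the 80 dpi TG animal, and animals 3 and 7 were below the WT animals at 17 dpi on all 3 arrays. Cxcl10 rose by 2.99 ± 0.77 (7.92-fold, adjusted p = 0.0203), against 5.25 in WT cord, and without the direct array the change was 2.61 (adjusted p = 0.115). Ccl2, the main chemoattractant of Ccr2-bearing monocytes, rose by 1.60 ± 0.47 (adjusted p = 0.0356; 1.47 and adjusted p = 0.148 without the direct array). Its ratio was 1.59 on the direct array and 0.06 for TG at 80 dpi over naive TG. Of 23 chemokines tested, 6 rose, the others being Ccl12 (1.02 ± 0.26), a further Ccr2 ligand, the neutrophil chemokine Cxcl2 (0.63), Cxcl9 (0.65) and Ccl20 (0.39 ± 0.08). The membrane-bound fractalkine of neurons, Cx3cl1, fell (-0.83). For comparison, 7.53% of all genes tested rose and 11.0% fell. The median of the list was 0.39, and 0.22 without the array of WT 17 dpi and naive WT.

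**Figure D2:**
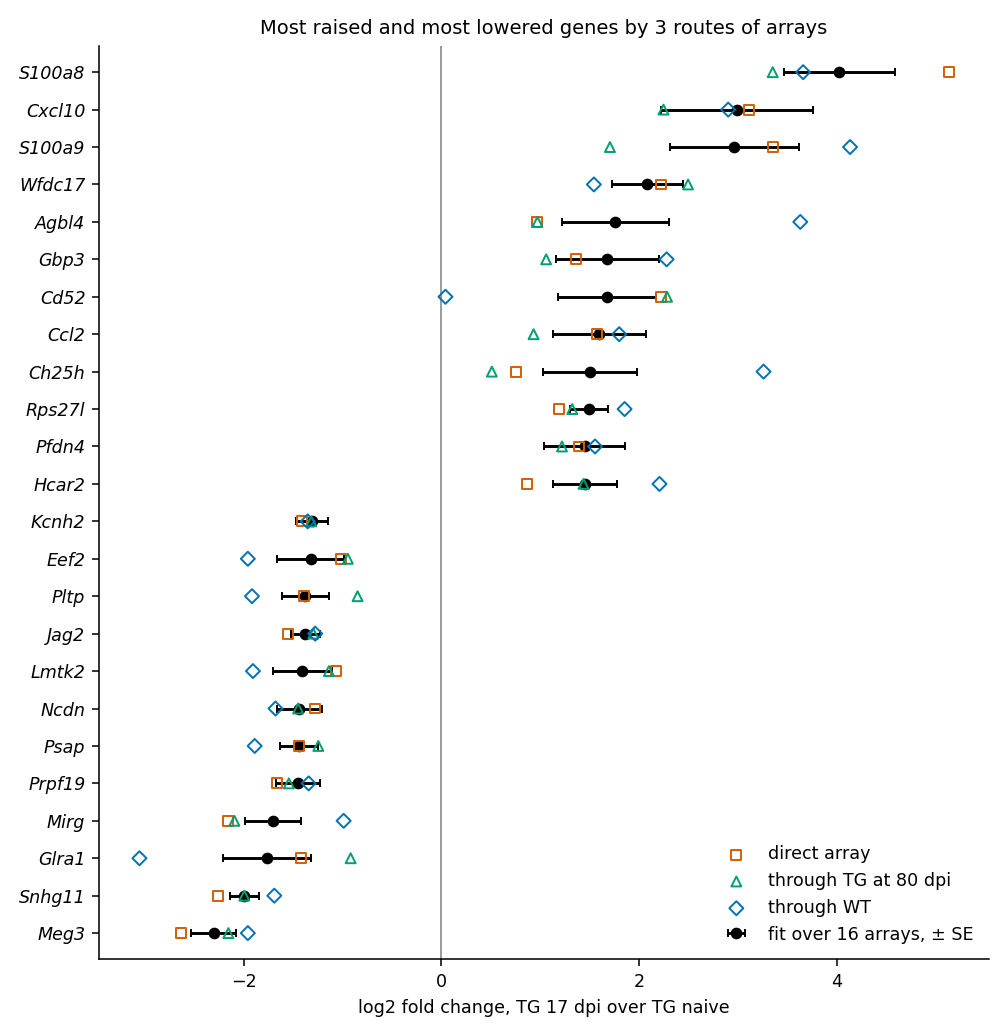
Log2 fold change, TG 17 dpi over TG naive (horizontal axis), of the 12 most raised and 12 most lowered genes that passed the test and kept 1 sign over 3 routes. Black points are the fit over 16 arrays with its standard error. Open symbols are the routes, which share no array but have the dye effect of the fit taken off. S100a8 ran from 3.35 to 5.13, whereas Cd52 gave 0.04 through WT and over 2.2 on the other 2 routes.

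Interferon-induced genes rose in part. Gbp3, a guanylate-binding protein of antimicrobial defence, had a ratio of 1.30 on the direct array and -2.75, -2.88 and -1.10 in TG over WT cord at 17 dpi, so that TG EAE cord lay between naive TG cord and WT EAE cord. Gbp3 rose by 1.68 ± 0.52 (adjusted p = 0.0427), a call lost without the direct array (adjusted p = 0.132). Its change in WT cord was 4.38, and the difference between the changes passed (-2.70, adjusted p = 0.0192). Of 43 interferon response genes tested 9 rose and 0 fell, against 7.53% and 11.0% of all genes tested, with a median of 0.47. By route that median was 0.24, 0.17 and 1.08, and it was 0.90 without TG 17 dpi animal 1, 0.29 without the array of WT 17 dpi and naive WT and 0.15 without WT 17 dpi animal 1. Ifit3, which sequesters viral RNA complexes, rose by 1.27 ± 0.33, Ifi27l2a by 0.98 ± 0.18, and Irf8, a transcription factor of myeloid cells, by 0.52 ± 0.12. Usp18 (1.05), Irgm2 (1.03), Oasl2 (0.81), Irgm1 (0.69) and Oas2 (0.65) were the others. Iigp1, an interferon-inducible GTPase, gave 1.58 ± 0.53 and did not pass (adjusted p = 0.0554). Without the direct array 2 of the 43 were called, Ifi27l2a (0.79) and Irf8 (0.63).

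Antigen presentation genes gave 3 calls in TG cord, all of class I. Among all genes tested 7.53% rose and 11.0% fell, so in lists this short the counts are near those shares. The ratio of H2-Aa, the alpha chain of an MHC class II molecule, was 0.66 on the direct array and 0.72 for TG at 80 dpi over naive TG. Over WT it was -2.82, -3.51 and -4.22 in TG cord at 17 dpi and 0.01, 0.02 and -0.04 in naive mice. TG animals 3 and 7 at 17 dpi were thus far below the WT animals with which they shared an array, and the naive animals were level. Its change in TG cord was 0.28 ± 0.31 and did not pass (adjusted p = 0.569). Of 11 class II genes 0 rose and 0 fell, and the most raised was H2-DMb1, a peptide-loading chain (0.43 ± 0.16, adjusted p = 0.081). Their median was 0.25, against 0.10 without the direct array and 0.03 without TG 17 dpi animal 1. Of 24 tested genes of MHC class I and peptide loading 3 rose: Psmb8, an immunoproteasome subunit (0.95 ± 0.26), the peptide-trimming enzyme Erap1 (0.94 ± 0.20) and the peptide transporter Tap1 (0.67 ± 0.17). The median of that list was 0.09.

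Markers of macrophages and microglia rose in part, and no member fell: 12 of 41 tested, with a median of 0.46. Cd52, a small surface glycoprotein of leukocytes, rose by 1.68 ± 0.50, with a ratio of 2.61 on the direct array, but gave 0.04 on the route through WT, and it was not called without the direct array (1.30, adjusted p = 0.188). Aif1, the calcium-binding protein Iba1 of microglia and macrophages, rose by 1.27 ± 0.20, the Toll-like receptor cofactor Ly86 by 1.24 ± 0.24 and Ms4a6d by 1.14 ± 0.16. Signalling adaptors and Fc receptors also passed: Tyrobp (0.94), Fcgr3 (0.91), Fcgr1 (0.83), Fcgr2b (0.78) and Fcer1g (0.73). Of 12 homeostatic microglia genes P2ry13, a nucleotide receptor, rose (0.60 ± 0.15) and Mertk, a receptor for engulfing apoptotic cells, fell (-0.86 ± 0.19). Both counts are near the shares over all genes, 7.53% higher and 11.0% lower. Wfdc17, a whey acidic protein gene of activated macrophages, rose by 2.08 ± 0.36 (adjusted p = 0.00379), against 4.13 in WT cord. The difference between those changes passed (-2.05, adjusted p = 0.0113). Hcar2, the receptor for hydroxybutyrate on myeloid cells, rose by 1.45 ± 0.32. Ctsc, the protease that activates granule serine proteases, rose by 1.37 ± 0.32. It was 1 of 2 that rose among 21 tested lysosomal genes, of which 2 fell, Psap (-1.44) among them. Their median was 0.08, and these counts too are near the shares over all genes. Complement genes C1ra (0.79 ± 0.24), C1qc (0.78 ± 0.15) and C5ar1 (0.56 ± 0.10) were 3 of 17 to rise, with a median of 0.27 (0.17 without the wide array of TG animal 3). None of 12 alternatively activated macrophage genes passed; Arg1, arginase 1, gave 0.08 ± 0.26.

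Lymphocyte markers showed no common direction, and their counts were near the shares over all genes, 7.53% higher and 11.0% lower. Of 31 tested T cell markers 2 rose, the co-receptors Cd28 (0.45) and Ctla4 (0.42 ± 0.09), and 3 fell, among them the signalling kinase Zap70 (-0.64 ± 0.16). The defining markers Cd3e (0.17 ± 0.06, adjusted p = 0.0576) and Cd79a (0.09 ± 0.15) did not pass, and neither did the pan-leukocyte gene Ptprc (0.22 ± 0.12, adjusted p = 0.214), whose 4 probes gave from -1.09 to 1.07. Of 22 cytokines Il23a, the p19 subunit of interleukin 23, rose (0.48 ± 0.07) and Il27 fell (-0.26 ± 0.05), while Ifng gave 0.57 ± 0.19 (adjusted p = 0.055). Markers of other tissue gave few calls: 1 of 22 meningeal and choroid plexus genes fell (Folr1, a folate receptor, -0.34), 1 of 11 Schwann cell genes rose and 1 fell, and 1 of 14 B cell genes rose (Fcrla, 0.23). None passed among 25 skeletal muscle genes (median 0.13, and -0.11 without WT 17 dpi animal 1) or 8 red blood cell genes (median -0.13, and -0.04 without that animal), and the choroid plexus transcript Ttr gave 0.35 ± 0.31.

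Reactive astrocyte genes rose in part, 9 of 38, while 1 fell. The list shares members with lists above, among them Cxcl10, its most raised gene, and Psmb8, whose calls are thus counted again here. Its median was 0.43. By route it was 0.16 on the direct array, 0.13 through TG at 80 dpi and 0.68 through WT, and it was 0.25 without the array of WT 17 dpi and naive WT, 0.12 without WT 17 dpi animal 1 and 0.74 without TG 17 dpi animal 1. S100a10, an annexin partner, rose by 1.37 ± 0.16 (adjusted p = 0.00109) and was still called without the direct array (1.42, adjusted p = 0.013). It carries a dye effect of -0.83, so its ratio on the direct array was 0.42 as deposited and 1.26 with that effect taken off. B3gnt5, a glycosphingolipid synthase, rose by 0.56 ± 0.06, the cytokine feedback inhibitor Socs3 by 0.79 and the hyaluronan receptor Cd44 by 0.42; Slc10a6 fell (-0.34). Of 32 genes of resting astrocytes 4 fell, near the share of 11.0% over all genes, and 1 rose, against 7.53% of all genes. Fgfr3, a growth factor receptor, fell by 0.91 ± 0.20 and Glul, the enzyme that makes glutamine from glutamate, by 0.60 ± 0.16, and the urea transporter Slc14a1 rose by 0.58 ± 0.16.

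The most lowered gene was Meg3, a maternally expressed noncoding RNA of the imprinted Dlk1-Dio3 cluster on chromosome 12. Its ratio was -2.46 on the direct array, 0.32 for TG at 80 dpi over naive TG and 2.47 for TG at 80 over 17 dpi. Over WT it was -0.23, 0.64 and -0.12 in TG cord at 17 dpi and 0.44, 0.46 and 0.02 in naive mice. Animal 1 at 17 dpi thus lay far below both the naive and the 80 dpi TG animal, and the ratios over WT were small at both times. Meg3 fell by 2.30 ± 0.23 (4.93-fold, adjusted p = 0.000713), against -1.91 in WT cord, and by 2.10 without the direct array (adjusted p = 0.012). Mirg, a microRNA-containing transcript of the same cluster, fell by 1.70 ± 0.28, and Snhg11, a small nucleolar RNA host gene, by 1.99 ± 0.15 (adjusted p = 0.000247), with all 4 of its probes passing. Without TG 17 dpi animal 1, which is on the direct array and on the array with 80 dpi, Meg3 still fell (by 1.80) and so did Snhg11 (by 1.60), whereas Mirg gave -0.94 (adjusted p = 0.14).

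Psap encodes prosaposin, the precursor of the saposins that help lysosomal enzymes degrade sphingolipids. Its ratio was -1.36 on the direct array, -0.06 for TG at 80 dpi over naive TG and 1.19 for TG at 80 over 17 dpi. Over WT it was -0.92, -1.29 and -1.59 in TG cord at 17 dpi and 0.01, 0.24 and -0.07 in naive mice. TG 17 dpi animals were the low ones on all 5 arrays that hold them. Psap fell by 1.44 ± 0.19 (adjusted p = 0.00146) by 2 probes (-1.52 and -1.36), against -0.16 in WT cord (adjusted p = 0.664), and the difference between the changes was -1.28 (adjusted p = 0.00382). For the other 11 of the 12 most lowered genes the difference between the TG and WT changes did not pass. They included Prpf19, a splicing ubiquitin ligase (-1.45 ± 0.22), Jag2, a Notch ligand (-1.38 ± 0.15), the phospholipid transfer protein Pltp (-1.38 ± 0.24), the ERG potassium channel Kcnh2 (-1.31 ± 0.16) and Eef2, translation elongation factor 2 (-1.32 ± 0.34).

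Neuronal genes fell more often than they rose, and so did all genes tested, of which 11.0% fell and 7.53% rose. Of 41 synaptic and neuronal markers 10 fell and 1 rose, the glutamate transporter Slc17a7 (0.50), with a median of -0.28 (-0.17 without naive TG animal 5). Glra1, the glycine receptor chain of spinal inhibitory synapses, fell by 1.77 ± 0.45, the sodium channel Scn8a by 1.23 ± 0.18, the synaptic vesicle protein Sv2a by 0.88 ± 0.14 and the vesicular inhibitory transmitter transporter Slc32a1 by 0.86. The call of Glra1 was lost without the direct array (-1.90, adjusted p = 0.0659). Among 21 neurofilament and motor neuron genes 5 fell and 0 rose, with Prph, peripherin, at -0.94 ± 0.24 and the neurofilament chain Nefm at -0.93. Ncdn (-1.44 ± 0.23) and the kinase Lmtk2 (-1.41 ± 0.30) were among the 12 most lowered, though their probes ran from -2.08 to -0.79 and from -1.92 to -0.89.

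Some vessel and glial progenitor genes also fell. Of 30 endothelial and barrier genes 7 fell and 0 rose. Their median was -0.28, but -0.10 without the direct array or without naive TG animal 5, -0.11 without TG 17 dpi animal 1, and -0.08 through TG at 80 dpi. The organic anion transporter Slco1a4 fell by 1.05 ± 0.14, Abcc9 by 1.01 ± 0.19, the tight junction protein Cldn5 by 0.56 and Pdgfb by 0.35 ± 0.06, while the pericyte gene Rgs5 fell by 1.04 ± 0.23. Of 16 oligodendrocyte progenitor genes 5 fell and 0 rose, with the proteoglycans Bcan at -1.03 ± 0.25 and Ncan at -0.49. Myelin and oligodendrocyte genes had 2 of 30 that fell, among them the myelin-associated glycoprotein Mag (-0.66 ± 0.18), and 2 that rose. Over all genes tested 11.0% fell and 7.53% rose, so these counts are near those shares. The median of the myelin list was -0.12. By route it was -0.03 on the direct array, 0.08 through TG at 80 dpi and -0.56 through WT, and 0.09 without the array of WT 17 dpi and naive WT. The 32 matrix and scar genes were near the shares over all genes, with a median of 0.04: 4 fell, including Timp2 (-0.92 ± 0.12), an inhibitor of metalloproteinases, and Col4a2 (-0.73 ± 0.10), a basement membrane collagen, and 3 rose, including the crosslinking enzyme Lox (0.52).

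Housekeeping groups split by route. For the counts below, the shares over all genes tested were 7.53% higher and 11.0% lower. Of 50 cytosolic ribosomal protein genes 24 rose and 1 fell, with a median of 0.45; Rpl35 rose by 1.21 ± 0.16 and Rps27 by 1.03 ± 0.17. The median was 0.61 on the direct array and 0.76 through TG at 80 dpi, but -0.02 through WT and 0.20 without TG 17 dpi animal 1. Without the direct array 4 of the 50 were called. The median was higher, at 0.65, without the array of WT 17 dpi and naive WT, and 0.66 without WT 17 dpi animal 1. In WT cord 38 of the 50 rose, with a median of 0.80. Mitochondrial respiratory chain genes followed the same pattern by route, with medians of 0.54, 0.57 and -0.20. Their median was 0.35 in the fit, 0.20 without the direct array and 0.03 without TG 17 dpi animal 1. Of 45 tested 8 were higher and 5 lower, and the number lower is near the share over all genes. Cox7c, a cytochrome oxidase subunit, rose by 1.26 ± 0.18, but it has a dye effect of -1.22 and its deposited ratio on the direct array was 0.22. Of 17 glucocorticoid-responsive genes 7 fell and 0 rose (median -0.31), among them the mTOR inhibitor Ddit4 (-0.91 ± 0.15), the clock gene Per1 (-0.40 ± 0.08) and Klf9 (-0.38 ± 0.08). That median was -0.02 without TG 17 dpi animal 1. Of 34 cell cycle genes 5 rose, among them Mad2l1 (0.65 ± 0.17) and Foxm1 (0.40 ± 0.08), and the mitotic kinase Plk1 fell (-0.36 ± 0.08).

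How far the contrast depends on the direct array was measured in 3 ways. Its ratio had a weight of 0.400 in the estimate, 17.8% of the absolute weight of all 16 arrays, and the next were the array of WT 17 dpi with naive WT (0.293) and those of TG at 80 over 17 dpi (-0.209) and of TG animal 7 over WT animal 1 at 17 dpi (0.209). Without the direct array 425 of the 1438 raised genes (29.6%) and 853 of the 2096 lowered genes (40.7%) were still called, and all 3534 kept their sign. The median size of those changes was 0.39 without the direct array, against 0.41 with it, while the median standard error over all genes grew to 0.144, against 0.119. These genes were picked for passing in the full fit, and the refit shares all its other arrays. Their kept sign and size thus describe the fit and are no separate test. All of them also kept their sign without naive TG animal 5, where the calls were 6 and 2. Among the 24 most raised or lowered genes the calls of 9 were lost: S100a9, Cxcl10, Gbp3, Cd52, Ccl2, Ch25h, Pfdn4, Glra1 and Eef2. Over the called genes the median size thus moved little and the calls much, but some list medians moved too, such as those of the endothelial and NF-kappaB genes given above.

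**Figure D3:**
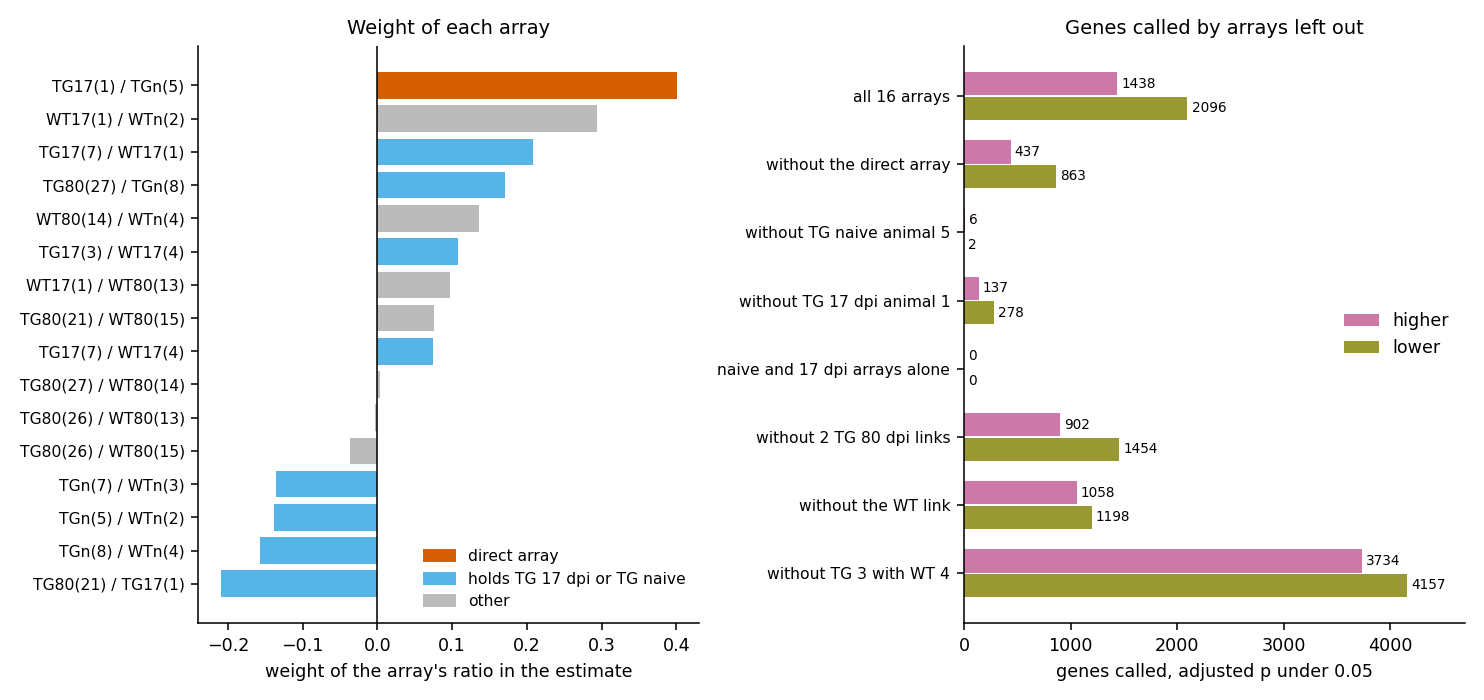
Left, the weight of each array's ratio in the estimate of TG 17 dpi over TG naive, with the direct array in orange and the other arrays that hold either group in blue. Right, genes called higher and lower with arrays or animals left out. The direct array weighs 0.400, and the calls drop to 6 and 2 without naive TG animal 5.

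The 3 routes that share no array gave an account of the same genes from partly different animals. Each was computed with the gene's dye effect from the full fit taken off, so the routes share that fitted term. The direct array compared animal 1 with naive animal 5. The route through TG at 80 dpi linked animal 1 to naive animal 8 through different 80 dpi animals, 21 and 27. Any difference between those 80 dpi animals thus enters that route. The route through WT linked animals 3 and 7 to all 3 naive animals. Its link array held only WT 17 dpi animal 1 and naive WT animal 2, so differences among WT animals enter it too. Of the 1438 raised genes 99.2% had the same sign on the 3 routes, and of the 2096 lowered genes 99.9%, against 57.7% of all genes tested. Since the fit combines the same arrays, these shares describe it and are no separate test. The medians over raised genes were 0.45 on the direct array, 0.39 through TG at 80 dpi and 0.36 through WT, and over lowered genes -0.39, -0.33 and -0.49. The route through WT had the widest spread, with an SD of 0.622 over all genes, against 0.337 and 0.316. For 2 of the most raised genes it gave far larger values than the other routes. Agbl4, a carboxypeptidase that trims glutamate from tubulin, gave 0.97, 0.97 and 3.63 by route, and Ch25h, cholesterol 25-hydroxylase, gave 0.76, 0.51 and 3.26. Without the array of WT 17 dpi and naive WT their changes were 0.86 and 0.98, against 1.76 ± 0.54 and 1.51 ± 0.47 in the full fit. Agbl4 was still called then and Ch25h was not (adjusted p = 0.174). Of the 24 most raised or lowered genes 17 were still called without that array. Among the most raised, S100a9, Gbp3, Ccl2 and Pfdn4 lost their calls as well. Rps27l, a ribosomal protein paralogue induced by p53, gave 1.19, 1.32 and 1.85, and Pfdn4, a prefoldin subunit, gave 1.39, 1.22 and 1.55. The likeness for Pfdn4 rests in part on its fitted dye effect of -0.44, and its deposited ratio on the direct array was 0.95. With the naive and 17 dpi arrays alone limma called 0 genes in either direction, with 3236 at an unadjusted p under 0.05 and 4 residual degrees of freedom, against 10 in the full fit.

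The change in TG cord was then set against that in WT cord, where 1882 genes were higher (9.86%) and 1654 lower (8.67%). The difference of the 2 changes passed for 142 genes in which TG gave the higher change (0.744%) and for 771 in which it gave the lower (4.04%), 4.78% in either direction. Immune genes made the lowest differences: Arg1 changed by 0.08 ± 0.26 in TG and 3.89 in WT cord, the chitinase-like Chil4 by -0.09 and 3.57, the lysozyme Lyz1 by 0.95 and 4.40, H2-Aa by 0.28 and 3.59, the T cell chemokine Ccl5 by -0.01 and 3.19 and Iigp1 by 1.58 and 4.71. By list, the TG change was the lower for 26 of 41 macrophage and microglia markers, where the medians were 0.46 in TG and 1.96 in WT cord, for 22 of 43 interferon response genes (0.47 and 1.97), for 19 of 24 class I genes (0.09 and 1.78), for 8 of 11 class II genes (0.25 and 1.88) and for 9 of 17 complement genes (0.27 and 1.04). Lyz1 depended on 1 array, with a TG change of 1.68 (adjusted p = 0.00647) without the array of WT 17 dpi and naive WT.

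For some other groups the count of such differences was 0 or 1. Over all genes tested 4.78% passed in either direction, so in lists this short these counts are near that share. For 0 of 15 neutrophil markers did the changes differ by the test; S100a8 changed by 4.02 in TG and 3.42 in WT cord, a difference of 0.60 ± 0.63. The same count was 0 of 30 myelin genes and 0 of 16 progenitor genes, and 1 of 41 neuronal markers passed, with medians of -0.28 in TG and -0.36 in WT cord. A p that misses the threshold does not show that the changes are equal. The highest differences were those of the globin genes Hba-a1 (-0.11 in TG and -1.88 in WT cord) and Hbb-bt (0.53 and -1.03), of Lratd1 (0.76 and -0.65), Serpinb1c (0.63 and -0.72), Prr18 (-0.05 and -1.40) and the cell cycle inhibitor Cdkn1c (0.28 and -0.89). The globins mark blood in the cord, and how far blood content moves with this comparison was not tested.

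**Figure D4:**
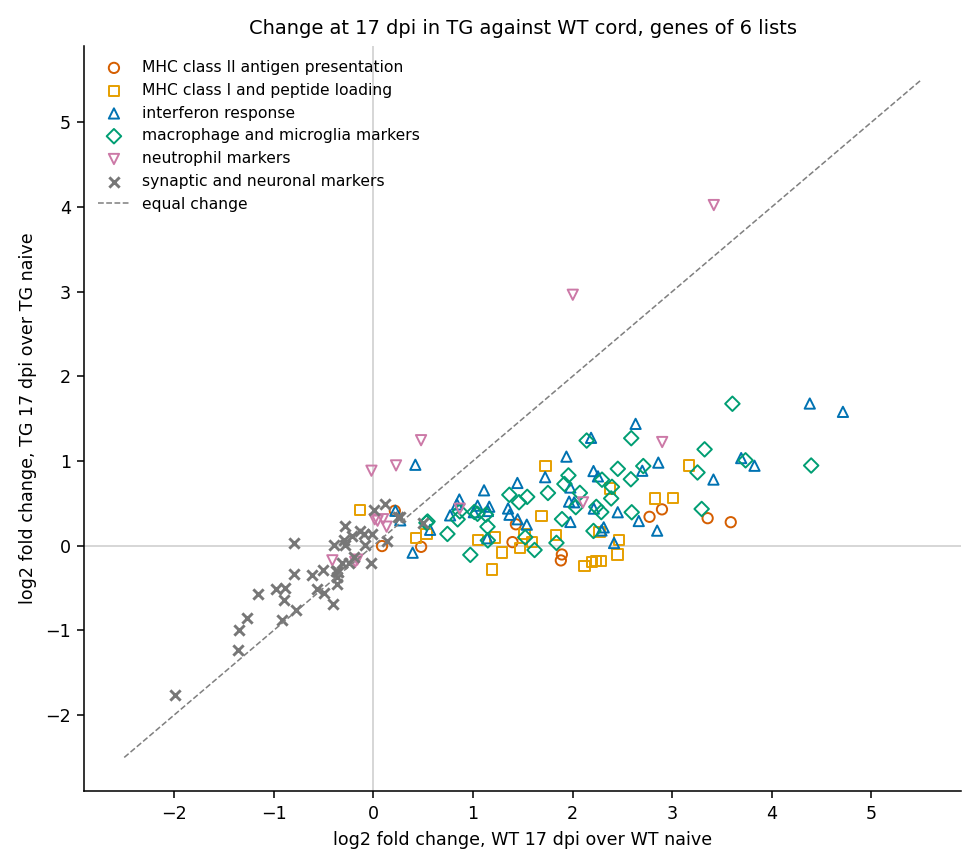
Log2 fold change at 17 dpi over naive in TG cord (vertical axis) against that in WT cord (horizontal axis) for genes of 6 lists, 1 point per gene, with a dashed line at equal change. Nearly all class I and II, interferon and macrophage genes lie below the line, S100a8 (4.02 in TG and 3.42 in WT cord) and S100a9 above it.

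**Figure D5:**
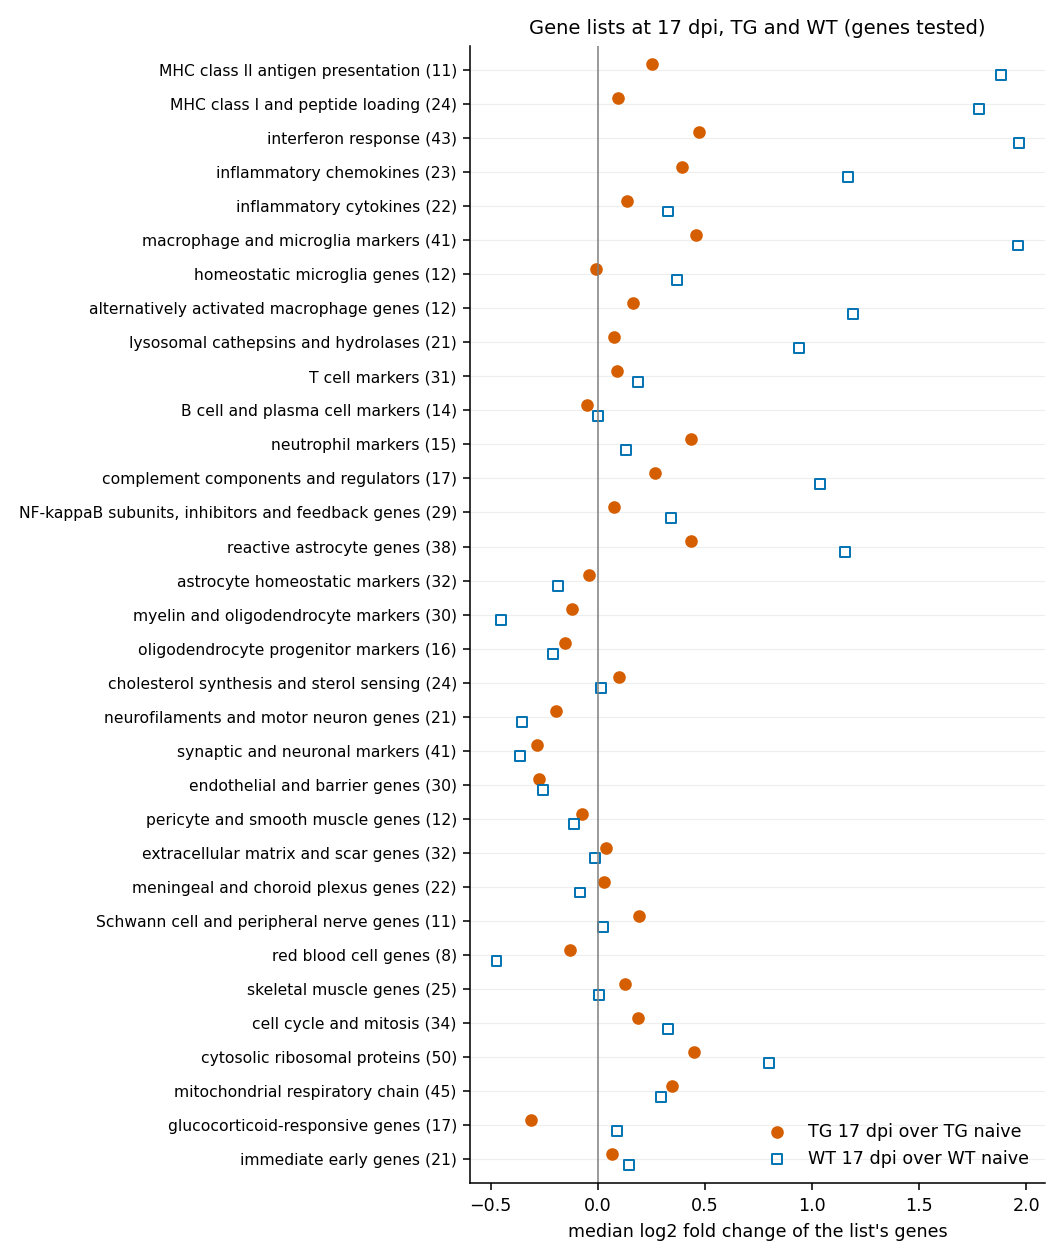
Median log2 fold change at 17 dpi over naive for each of 33 gene lists in TG cord (filled circles) and in WT cord (open squares), with the number of genes tested in brackets. Class II genes have medians of 0.25 in TG and 1.88 in WT cord, whereas glucocorticoid-responsive genes have -0.31 in TG and 0.09 in WT cord.

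The later time was compared with 17 dpi within TG cord. This comparison uses the same TG 17 dpi animals, so a deviation of theirs enters both with opposite signs, and its values are given side by side with those above only as a description. Between 80 and 17 dpi in TG cord 1274 genes were higher (6.67%) and 845 lower (4.43%), but 1 and 0 without the 2 arrays that pair TG at 80 dpi with naive or 17 dpi TG animals, and 16 and 8 without TG 17 dpi animal 1. Cxcl10 was lower at 80 dpi (-2.62 ± 0.75, adjusted p = 0.0445), as were Ccl2 (-1.60 ± 0.46), Hcar2 (-1.31 ± 0.31), Rps27l (-1.30 ± 0.19), Pfdn4 (-1.39 ± 0.40) and Rpl35 (-1.31 ± 0.15). Meg3 was higher (2.18 ± 0.22, adjusted p = 0.00137), as was Psap (1.23 ± 0.18). S100a8 did not pass, at 1.08 ± 0.55 (adjusted p = 0.229). The other highest values were those of Igf2 (2.73 ± 0.32), the matrix proteoglycan Ogn (2.27 ± 0.26) and the muscle genes Acta1 (2.84 ± 0.67), Ckm (1.79 ± 0.50) and Atp2a1 (1.77 ± 0.49). The median of 25 skeletal muscle genes was 0.75 in that comparison, against 0.13 at 17 dpi over naive, and its part in these values was not tested. No refit of that comparison left out an 80 dpi animal.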

How the data were processed

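Total RNA of spinal cord was amplified, labelled with Cy3 or Cy5 and hybridised in pairs, per the labels' protocols. The deposited values are log ratios, 1 per feature and array, taken here as log2 because the base is not stated; the authors normalised them with limma, by loess within arrays and quantiles between arrays, per the series' design text. Signal levels were not used here. Features were named through the platform annotation: 32042 of 44290 had 1 symbol, 47 several and 12201 none listed. Features of 1 symbol were averaged, and 19087 genes with enough values were tested.

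A model with a coefficient per group and a dye term was fitted to 16 arrays by generalised least squares in limma 3.58.1 (R 4.3.3, statmod 1.5.0), with a correlation of 0.26 between arrays sharing an animal, empirical Bayes and Benjamini-Hochberg adjustment at 0.05. Adjusted p-values are from this limma fit, or from its refit where an alternative (such as a left-out array) is named. The fitting code was also run on simulated data with independent noise and no correlation between arrays. That run does not cover the dependence on few animals or the wide array, and no result rests on it. Replicates are animals, and their small number limits the precision. The 4 arrays of 10 dpi were not linked to the others and entered 1 alternative only.

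Named genes were the 12 most raised and 12 most lowered called genes with 1 sign on 3 routes, the 3 members of each list with the largest statistic, the label genes, and 6 per direction in the other comparisons. Other genes in the text are the remaining called members of a list, or, as with Ifi27l2a and Irf8, those still called under an alternative; these were chosen after their values were seen. The members, the working direction and the 33 lists were chosen with earlier results of these data known. Alternatives left out arrays and animals and varied the dye term, correlation, normalization, weights, probes and direction. All columns were mapped to samples. Tables and figures were made with Python 3.11.15, pandas 2.3.3, numpy 2.4.6 and matplotlib 3.10.9.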

Additional observations from a re-analysis of the deposited data

Results flagged for a closer look

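The change at 17 dpi over naive differed between TG and WT cord by the test of the difference itself (limma, adjusted over all genes) for the 12 genes given here, the 6 highest and 6 lowest by size. TG cord gave the lower change for Arg1 (-3.82 ± 0.29, adjusted p = 4.34e-05), Chil4 (-3.66 ± 0.23, adjusted p = 8.77e-06), Lyz1 (-3.45 ± 0.55, adjusted p = 0.00319), H2-Aa (-3.31 ± 0.34, adjusted p = 0.000168), Ccl5 (-3.19 ± 0.27, adjusted p = 6.02e-05) and Iigp1 (-3.13 ± 0.59, adjusted p = 0.00897). TG cord gave the higher change for Hba-a1 (1.76 ± 0.37, adjusted p = 0.0178), Hbb-bt (1.56 ± 0.30, adjusted p = 0.0107), Lratd1 (1.41 ± 0.24, adjusted p = 0.0043), Serpinb1c (1.36 ± 0.33, adjusted p = 0.0372), Prr18 (1.36 ± 0.31, adjusted p = 0.0285) and Cdkn1c (1.17 ± 0.19, adjusted p = 0.00388).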

How the results depend on the processing

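The working direction is the choice on which most rests: with the ratios read in title order limma called 0 genes higher and 0 lower, with 1706 at an unadjusted p under 0.05, and 0 in both directions of the other comparisons. In that reading 23 of the 100 named and called genes turned sign: Agbl4 (-0.24), Gbp3 (-0.41), Ch25h (-0.77), Erap1 (-0.22), Tap1 (-0.27), Irf8 (-0.21), Ms4a6d (-0.61), P2ry13 (-0.11), Ctsc (-0.22), Retnlg (-0.34), C1qc (-0.24), C1ra (-0.76), Gadd45b (-0.49), S100a10 (-0.19), Ebp (-0.0398), Fgfr3 (0.11), Mag (0.029), Neu4 (0.20), Gpr17 (0.0155), Uchl1 (0.12), Rgs5 (0.12), Foxd3 (0.0632) and Egr4 (0.0264). In no other alternative did a named call turn. For TG 17 dpi over naive the genes higher and lower were 437 and 863 without the direct array, 0 and 0 with the naive and 17 dpi arrays alone, 902 and 1454 without the 2 TG arrays of 80 dpi, 1058 and 1198 without the array of naive and 17 dpi WT, 3734 and 4157 without the wide array of TG animal 3, 240 and 469 with no dye term, 930 and 1511 with scale normalization, 3779 and 4143 with array weights, 3299 and 4784 with each probe on its own, and 995 and 1261 with genes of 1 probe. Leaving out 1 animal at a time gave 6 to 4223 genes higher and 2 to 4531 lower. Here and below only naive and 17 dpi animals were left out in turn. For the TG against WT change (142 higher and 771 lower), leaving out 1 animal gave 7 to 2724 genes higher and 293 to 3510 lower. The numbers were 0 and 88 with the naive and 17 dpi arrays alone, 79 and 604 without the direct array, 71 and 594 without the 2 TG arrays of 80 dpi, 86 and 739 without the array of naive and 17 dpi WT, 1475 and 2360 without the wide array, 341 and 1077 with all 20 arrays, 56 and 771 with no dye term, 729 and 1614 with no correlation, 46 and 556 with scale normalization, 1419 and 2280 with array weights, and 314 and 1285 with each probe on its own. For TG at 80 over 17 dpi (1274 and 845), leaving out 1 naive or 17 dpi animal gave 16 to 3826 genes higher and 8 to 3592 lower. The influence of single 80 dpi animals was not tested. The numbers were 1 and 0 without the 2 TG arrays of 80 dpi, 105 and 39 with scale normalization, 166 and 95 with no dye term, 1989 and 1335 with no correlation, 3339 and 3019 without the wide array, 3942 and 3492 with array weights, and 3167 and 2058 with each probe on its own. The causes were not tested. No paired analysis was possible because the numbers in the labels name animals, and pairing lies within each array. Without signal levels, dim probes could not be left out.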
